A study of Mus musculus with 6 samples.

Results

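Liver progenitor-like cells (LPCs) grown from bile ducts were compared with LPCs grown from the non-parenchymal fraction of the mouse liver, the cells other than hepatocytes. The samples were chosen by their titles: 2 libraries named Bec_LPCs and 2 named NPC_LPCs, together 4 of the series' 6. All are C57BL/6 cells, from mice labelled 6 to 8 weeks old, kept in Transition and Expansion Medium (TEM), a medium in which liver cells divide and take on progenitor features. Bec_LPCs came from wild-type mice. Pieces of intrahepatic bile duct were digested, plated in matrigel and passaged 1 to 2 times, and the outgrowing cells were sorted by flow cytometry; the series describes them as Epcam+, so Epcam is no finding here. NPC_LPCs came from AlbCreERT/R26GFP mice (given as 8 weeks old in the growth protocol), in which the albumin promoter drives an inducible Cre and recombined cells carry GFP. The labels name no sort after culture for NPC_LPCs. Source tissue, genotype, plating, sort and the way the tables were counted all differ between the groups and cannot be told apart. The remaining 2 libraries, Hep_LPCs from hepatocytes of ROSA26tdTomato mice given AAV8-TBG-Cre, were used for the estimate of spread and are quoted only for context.

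Biliary epithelial cells line the ducts that drain bile, and they carry keratins, tight junctions and transcription factors such as Sox9. The non-parenchymal fraction is a mixture of bile duct, endothelial, stellate and immune cells, so a culture from it can start from several cell types. Epithelial cells of the liver also take part in innate defence: NF-kB drives chemokines and acute phase proteins, and interferon drives antiviral genes and antigen presentation.

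Total counts were 22634867 to 22985844 in Bec_LPCs and 17919947 to 20625957 in NPC_LPCs. The Bec_LPCs libraries lay close together (chi-square of 5.70 per degree of freedom across genes, Pearson's r of 0.993 between log2 levels) and the NPC_LPCs libraries far apart (113 and 0.942), across genes, which are not independent replicates. Nothing in the labels tells whether the libraries of a group came from different cultures or mice. The p-values therefore measure the spread between these samples alone, which may be technical. Levels below are CPM, read counts scaled for sequencing depth on TMM-scaled library sizes, in the order replicate 1, replicate 2. Differences are log2 fold changes, Bec_LPCs minus NPC_LPCs, ± a standard error (SE). The SE was back-calculated as the size of the fold change over the square root of the F statistic of the test described next. For genes near 0 reads in 1 group it is only a rough guide. A gene was called when edgeR's quasi-likelihood test over all 6 libraries gave a Benjamini-Hochberg adjusted p under 0.05, and every adjusted p below is from that test. "Without" a library means the same test with that library left out, and "either" library of a group refers to both such fits, each with 1 of the pair left out. Genes whose exons overlap another gene or that have a near-identical copy have a counting doubt: they are counted in the totals and are not named as results.

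In all, 1458 of 12867 genes tested were called (11.3%), 629 higher in Bec_LPCs (4.89%) and 829 lower (6.44%). Higher genes were 43.1% of the calls, and 61.3% when libraries were scaled by their total alone, which moved the median of all genes from 0.01 to 0.17. Among the 8850 genes without counting doubt 846 were called (9.56%), 452 higher (5.11%) and 394 lower (4.45%). With 1 library left out, 115 and 117 genes were called without Bec_LPCs replicate 1 and 2, and 850 and 1076 without NPC_LPCs replicate 1 and 2. In such a fit the lone library is assumed to vary like the other groups. Of 96 called genes named by a fixed rule, 15 and 14 were also called without Bec_LPCs replicate 1 and 2, and 58 and 67 without NPC_LPCs replicate 1 and 2.

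**Figure D1:**
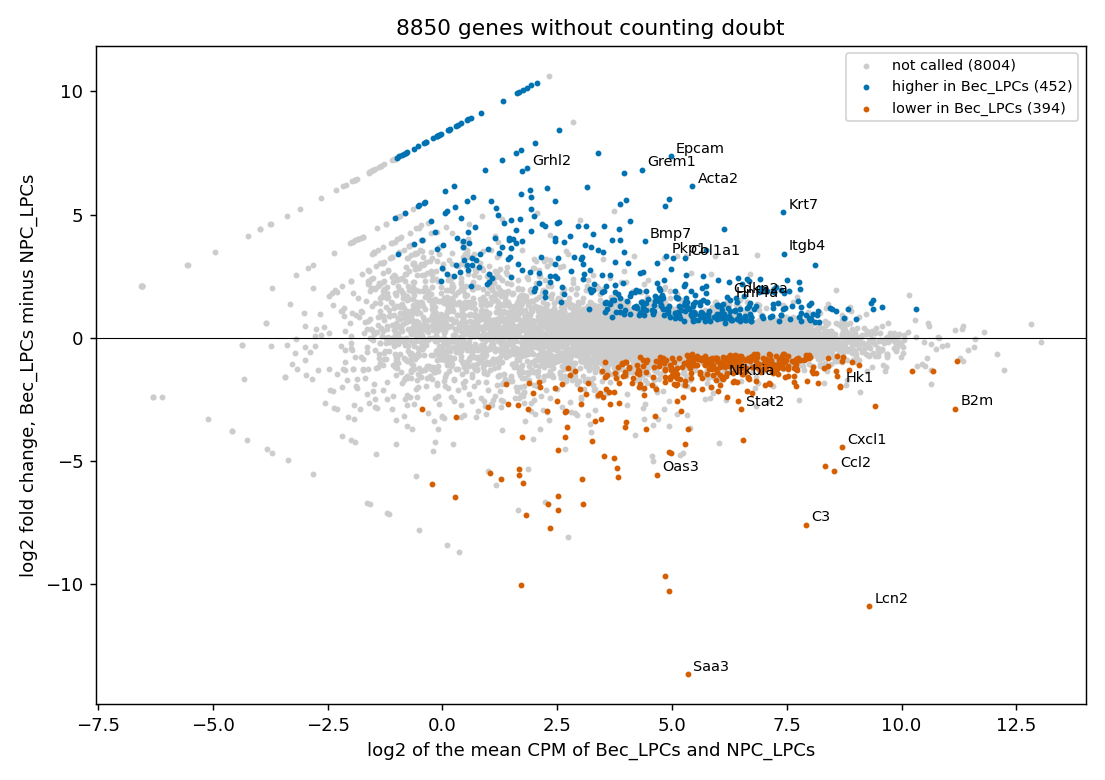
Each point is 1 of 8850 genes without counting doubt, with the log2 of its mean CPM over Bec_LPCs and NPC_LPCs on the x axis and its log2 fold change on the y axis; 452 are called higher in Bec_LPCs (blue) and 394 lower (orange). Saa3, Lcn2 and C3 lie far below 0, and the straight upper edge holds genes with no read in NPC_LPCs; Epcam was the sort marker.

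**Figure D2:**
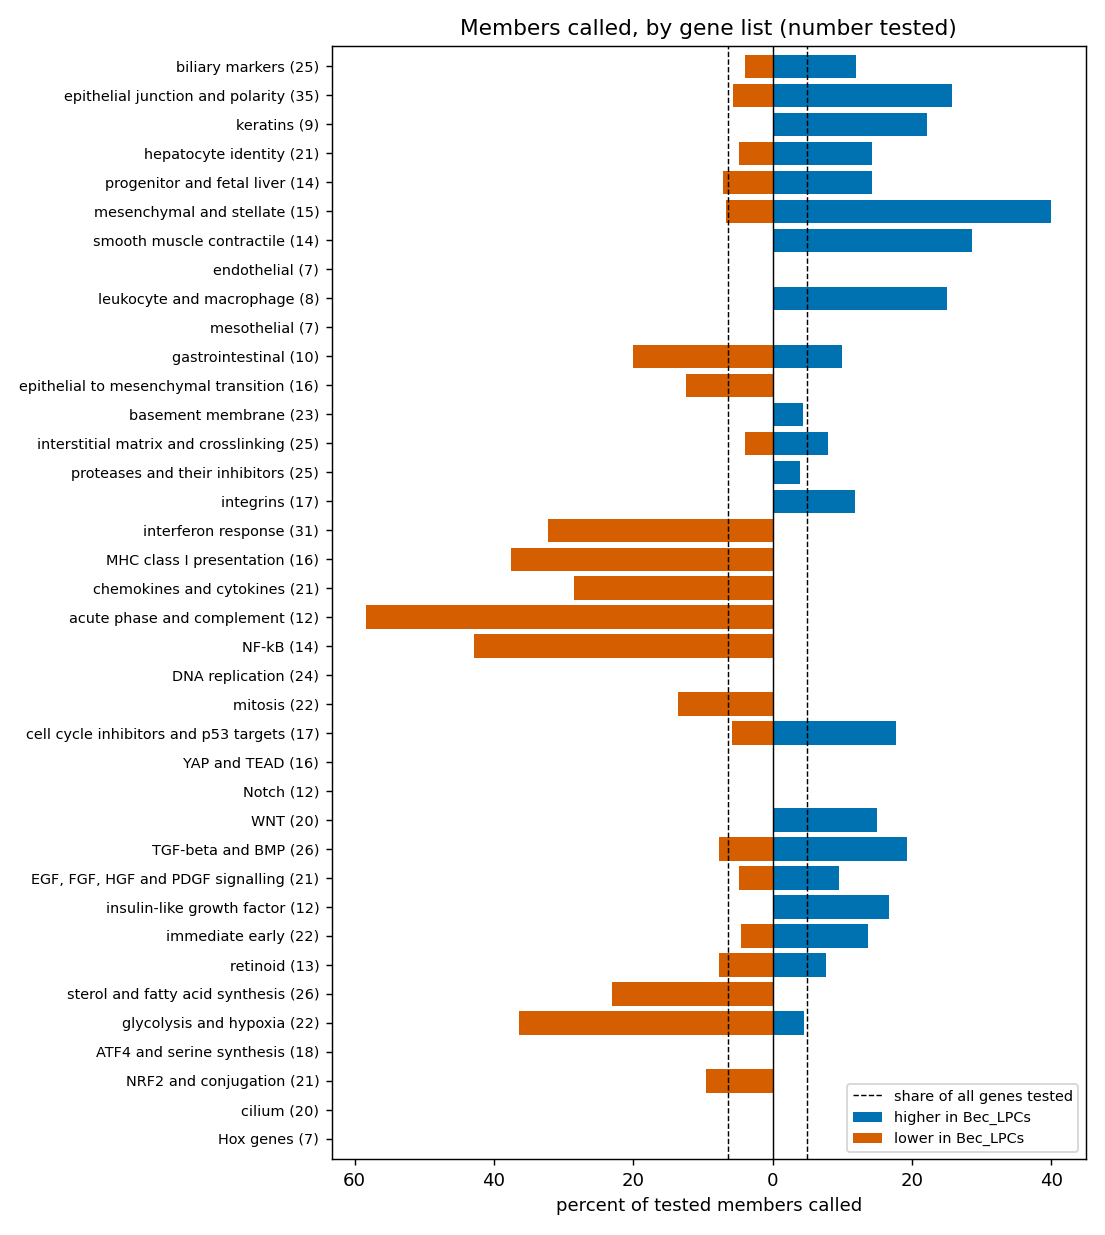
Bars give the percent of tested members of each gene list that were called higher (blue, to the right) or lower (orange, to the left) in Bec_LPCs, with the number tested in brackets and dashed lines at the shares of all genes tested, 4.89% and 6.44%. Acute phase and complement has 7 of 12 members lower, and the mesenchymal and stellate list 6 of 15 higher.

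The promoters of 5 genes that fell in Bec_LPCs are shown, picked because they hold letters like the motifs that NF-kB and interferon factors bind. Each is the 250 bases before the RefSeq gene start (GRCm38.p6), on the gene's strand; for Stat2 the RefSeq start lies upstream of the GENCODE starts, so its strand was not checked against a transcript. Capitals mark NF-kB-like letters (GGGANNTTC, or GAANNTCCC on the other strand) and letters like the interferon-stimulated response element, or ISRE (GAAANNGAA, or TTCNNTTTC). Cxcl1 holds an NF-kB-like run read from both strands, where matches overlap. Nfkbia holds 2 NF-kB-like matches and, between them, 1 ISRE-like match. B2m holds 1 of each, the ISRE-like first. Oas3 holds 2 overlapping ISRE-like matches and Stat2 holds 1.
Cxcl1 (chr5:90890995-90891244, plus strand): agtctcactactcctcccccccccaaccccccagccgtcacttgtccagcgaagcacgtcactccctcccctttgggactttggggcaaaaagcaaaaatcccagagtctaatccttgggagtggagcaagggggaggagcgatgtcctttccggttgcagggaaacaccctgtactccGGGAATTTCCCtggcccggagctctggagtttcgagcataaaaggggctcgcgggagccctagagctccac
Nfkbia (chr12:55492648-55492897, minus strand): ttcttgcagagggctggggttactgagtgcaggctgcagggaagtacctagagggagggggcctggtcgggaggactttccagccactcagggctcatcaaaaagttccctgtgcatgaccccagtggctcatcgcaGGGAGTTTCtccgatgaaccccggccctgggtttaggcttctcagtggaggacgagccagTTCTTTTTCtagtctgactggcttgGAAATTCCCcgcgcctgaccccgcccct
B2m (chr2:122147437-122147686, plus strand): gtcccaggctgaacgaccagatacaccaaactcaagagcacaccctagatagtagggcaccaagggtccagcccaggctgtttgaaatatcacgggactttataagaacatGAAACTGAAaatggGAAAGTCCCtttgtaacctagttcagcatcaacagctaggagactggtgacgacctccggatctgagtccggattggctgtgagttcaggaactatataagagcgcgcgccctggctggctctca
Oas3 (chr5:120777660-120777909, minus strand): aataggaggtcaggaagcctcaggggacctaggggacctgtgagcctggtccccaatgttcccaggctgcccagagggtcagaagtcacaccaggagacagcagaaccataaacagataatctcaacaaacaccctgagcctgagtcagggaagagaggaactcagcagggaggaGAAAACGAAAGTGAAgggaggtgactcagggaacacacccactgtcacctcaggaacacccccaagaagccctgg
Stat2 (chr10:128270248-128270497, plus strand): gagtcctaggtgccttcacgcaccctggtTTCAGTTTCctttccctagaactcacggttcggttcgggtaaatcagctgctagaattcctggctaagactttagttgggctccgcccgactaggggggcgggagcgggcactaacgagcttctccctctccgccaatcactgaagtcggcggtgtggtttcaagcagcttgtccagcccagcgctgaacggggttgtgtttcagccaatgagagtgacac
NF-kB-like letters were in the window of 3.70% of 27025 genes and of 3.53% of the tested genes that have a window. Among tested list members with a window they were in 5 of 14 chemokine and cytokine genes, 2 of 10 NF-kB genes and 0 of 8 acute phase genes. ISRE-like letters were in 8.18% of all windows, in 7.25% of those of tested genes and in 12 of 22 tested interferon genes, among them Oas3 and Stat2. A match describes the letters and says nothing of binding.

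Acute phase and complement genes were lower in Bec_LPCs. Of 12 tested members 7 fell and none rose, against 6.44% of all genes called lower, with a median of -6.23 against 0.01 for all genes. Both Bec_LPCs libraries lay below both NPC_LPCs libraries for all 12 tested members, as they did for 33% of genes tested. Of 17 in the list 5 were under the expression filter. Members near 0 reads in Bec_LPCs, such as Saa3, passed it through the other groups, so the median and directions can lean toward genes low there. Lcn2, lipocalin-2, which withholds iron from bacteria by binding their siderophores (ENSMUSG00000026822.14, chromosome 2, 32384633 to 32388252), was at 1.10 and 0.214 CPM in Bec_LPCs and 1827 and 692 CPM in NPC_LPCs. It fell by 10.89 ± 1.53 (adjusted p = 0.0160). Saa3, an acute phase serum amyloid A, had 0 reads in both Bec_LPCs libraries and 141 and 21.2 CPM in NPC_LPCs, which is at least 636-fold lower with each Bec_LPCs library set at a floor of 3 reads (adjusted p = 0.0255); floors cover counting error only. C3, the central complement component, was at 4.01 and 1.03 CPM against 750 and 214 CPM (-7.57 ± 1.49, adjusted p = 0.0343). Orm1, the plasma protein orosomucoid, was at 0.127 and 0.0429 CPM against 19.3 and 3.56 CPM (-6.97 ± 1.16, adjusted p = 0.0237). From 4 reads in all in Bec_LPCs, Orm1 was 128-fold lower there, with a 95% exact counting interval of 49.8 to 473; this and later counting intervals compare summed reads and leave out the spread between libraries. In each of these genes the groups did not overlap, while the NPC_LPCs libraries lay far from each other.

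Il1rn, the antagonist of the interleukin-1 receptor, was lower by less, at 13.8 and 10.2 CPM against 68.6 and 59.1 CPM (-2.41 ± 0.36, adjusted p = 0.0191). Nos2, inducible nitric oxide synthase, had 0 and 3 reads in Bec_LPCs against 20.9 and 93.5 CPM (-9.67 ± 1.51, adjusted p = 0.0211), which is 933-fold lower (counting interval 319 to 4530). Here NPC_LPCs replicate 2 was the higher of the pair, opposite to Saa3, Lcn2 and C3. Of these 6 genes none was called without either Bec_LPCs library. Without NPC_LPCs replicate 1, 4 were called, and without replicate 2, 5; C3 was called in neither (adjusted p = 0.0791 and 0.0526).

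Chemokines that attract monocytes and neutrophils were lower in Bec_LPCs. In the chemokine and cytokine list 6 of 21 tested members fell, against 6.44% of all genes, and none rose. The median was -2.32, or -1.95 with genes at 0 reads set at their bound. Of 25 in the list 4 were under the expression filter, and this median can also lean toward genes low in Bec_LPCs. Ccl2, which recruits monocytes (ENSMUSG00000035385.5, chromosome 11, 82035571 to 82037453), was at 18.5 and 16.1 CPM in Bec_LPCs and 804 and 647 CPM in NPC_LPCs (-5.39 ± 0.26, adjusted p = 0.000928). Cxcl1, a neutrophil attractant whose promoter is printed above (ENSMUSG00000029380.11, chromosome 5, 90891241 to 90893115), was at 38.9 and 34.4 CPM against 957 and 630 CPM (-4.44 ± 0.27, adjusted p = 0.00145). For both genes the spread within a group was small beside the gap, and both stayed called with any 1 of the 4 libraries left out.

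Cxcl5, another neutrophil attractant, was at 20.9 and 13.6 CPM against 921 and 326 CPM (-5.18 ± 0.60, adjusted p = 0.00965). Ccl20, which attracts cells carrying CCR6, was at 2.24 and 2.49 CPM against 88.3 and 28.8 CPM (-4.63 ± 0.72, adjusted p = 0.0207). Both stayed called when either NPC_LPCs library was left out and lost the call when either Bec_LPCs library was. Hep_LPCs held these 4 genes at 128.5 CPM (Ccl20) to 1095 CPM (Cxcl1), above both Bec_LPCs libraries for each gene.

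NF-kB pathway genes moved the same way but by less. Of 14 tested members 6 fell, against 6.44% of all genes, and none rose, with a median of -0.72. Nfkbia, the inhibitor that holds NF-kB in the cytoplasm and is itself an NF-kB target, was at 34.3 and 31.7 CPM against 103 and 107 CPM (-1.67 ± 0.17, adjusted p = 0.00581). Bcl3, a nuclear cofactor of NF-kB, was at 18.1 and 15.5 CPM against 80.7 and 61.1 CPM (-2.08 ± 0.25, adjusted p = 0.0106). Tnfaip2, induced by tumour necrosis factor, and Nfkbiz, a nuclear inhibitor-like regulator, were lower (-2.14 and -0.94, adjusted p = 0.0125 and 0.0406). None of these 4 was called without either Bec_LPCs library, 3 were without NPC_LPCs replicate 1 and 4 without replicate 2.

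Interferon response genes were lower in Bec_LPCs in nearly every member. Of 31 tested 10 fell, against 6.44% of all genes, and none rose. In 29 both Bec_LPCs libraries lay below both NPC_LPCs libraries, as in 33% of all genes, and 1 had a positive fold change; the median was -3.28. The size rested on NPC_LPCs replicate 2: the median was -1.38 without it and -4.07 without replicate 1, with 7 and 29 members called. Stat2, which carries the type I interferon signal to the nucleus, was at 24.7 and 18.1 CPM against 125 and 193 CPM (-2.90 ± 0.31, adjusted p = 0.00772). Oas3 and Oas2, synthases that activate RNase L on double-stranded RNA, were lower (-5.55 and -6.40, adjusted p = 0.0184 and 0.0231). Oas2 had 6 reads in all in Bec_LPCs, which makes it 91.7-fold lower there (counting interval 41.8 to 251). Oas3 was at 1.52 and 0.600 CPM against 20.9 and 78.7 CPM.

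Ifit2, which binds viral RNA, was at 19.03 and 18.6 CPM against 48.8 and 48.1 CPM, the narrowest spread among the interferon genes named (-1.37 ± 0.18, adjusted p = 0.0125). Rtp4, an interferon-induced chaperone, was at 4.51 and 2.96 CPM against 16.9 and 132 CPM (-4.32 ± 0.97, adjusted p = 0.0454). Iigp1, an immunity-related GTPase, was at 2.74 and 1.97 CPM against 11.4 and 110 CPM (-4.69 ± 1.07, adjusted p = 0.0470). Of these 6 genes, Stat2 was the 1 called without Bec_LPCs replicate 1 and none was without replicate 2. All 6 were called without NPC_LPCs replicate 1 and 5 without replicate 2. Hep_LPCs held Oas3 at 0.234 and 0.237 CPM and Stat2 at 24.1 and 31.7 CPM, below both NPC_LPCs libraries for both genes.

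Genes of MHC class I presentation, which shows peptides from inside the cell to T cells, were also lower. Of 16 tested members 6 fell, against 6.44% of all genes, and none rose, with a median of -1.13. Of the 7 without counting doubt 4 fell, against 4.45% of all such genes. B2m, the invariant light chain of class I (ENSMUSG00000060802.8, chromosome 2, 122147686 to 122153083), was at 567 and 540 CPM against 4422 and 3658 CPM (-2.87 ± 0.24, adjusted p = 0.00354). It stayed called with any 1 of the 4 libraries left out. Calr, calreticulin, an endoplasmic reticulum chaperone that helps load class I, was at 914 and 943 CPM against 2264 and 2437 CPM (-1.34 ± 0.17, adjusted p = 0.0118). Tap2, a subunit of the peptide transporter, and Psmb8, a subunit of the immunoproteasome, were lower (-2.19 and -2.62, adjusted p = 0.0470 for both). Without Bec_LPCs replicate 1 or 2 B2m alone of these 4 was called, and 3 and 2 were called without NPC_LPCs replicate 1 and 2.

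**Figure D3:**
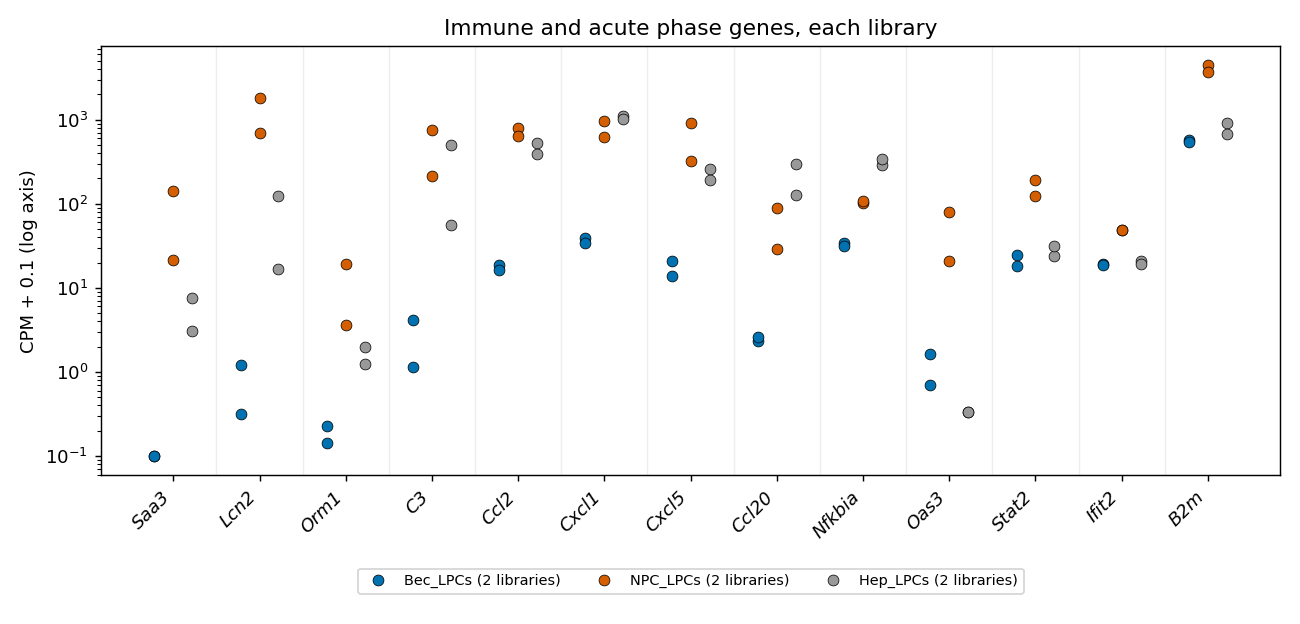
Each point is 1 library's level of a gene, as CPM plus 0.1 on a log axis, with 2 libraries each for Bec_LPCs (blue), NPC_LPCs (orange) and Hep_LPCs (grey). For all 13 genes both blue points lie below both orange points, from 0 reads of Saa3 to 567 CPM of B2m in Bec_LPCs.

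Markers of leukocytes, which make many of these transcripts, were read in every library. Ptprc, CD45, which all leukocytes carry, was at 0.591 and 0.772 CPM in Bec_LPCs and 0.116 and 0.254 CPM in NPC_LPCs. Adgre1, the macrophage marker F4/80, had 0 and 1 reads in NPC_LPCs. The 22 leukocyte and macrophage markers summed to 80.9 to 85.6 CPM in Bec_LPCs and 83.1 to 252 CPM in NPC_LPCs, of which Cd14, also carried by liver epithelium, gave 161 and 52.7 CPM in NPC_LPCs. In NPC_LPCs 11 and 9 of the 22 were at 0 reads and in Bec_LPCs 5 and 6. Of 8 tested 2 were called, both higher in Bec_LPCs, against 4.89% of all genes. The median of the 8 tested was -0.37. The part of leukocytes in the immune differences was not tested. In bulk samples fewer cells of a type and less RNA per cell cannot be told apart.

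Epithelial junction and polarity genes were higher in Bec_LPCs. Of 35 tested members 9 rose, against 4.89% of all genes, and 2 fell (Lsr and Ppl), with a median of 1.64. Of the 26 without counting doubt 5 rose, against 5.11% of all such genes, and 2 fell, with a median of 1.52. When genes needed 10 CPM in 2 libraries, 4 rose. Members near 0 reads in NPC_LPCs, such as Grhl2, passed the expression filter through Bec_LPCs, so the median can lean toward genes high there. In 25 of the 35 both Bec_LPCs libraries lay above both NPC_LPCs libraries, as in 37% of all genes tested. Grhl2, a transcription factor of epithelial identity, was at 6.58 and 7.63 CPM against 1 read in each NPC_LPCs library (6.88 ± 0.86, adjusted p = 0.0120), or 131-fold higher (counting interval 36.1 to 1090). Pkp3 and Marveld3, of desmosomes and tight junctions, rose (4.93 and 3.87, adjusted p = 0.0215 and 0.0169). Cdh3, P-cadherin, was at 57.6 and 54.3 CPM against 0.866 and 1.88 CPM (5.33 ± 1.13, adjusted p = 0.0410). Pkp1, a desmosomal plakophilin outside the list, was at 48.8 and 57.3 CPM against 5.08 and 5.59 CPM (3.31 ± 0.27, adjusted p = 0.00325). In all 5 the groups were far apart, and Hep_LPCs, at 2.87 and 28.5 CPM of Cdh3, varied more.

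The list did not move as 1 block. Cdh1, E-cadherin, was abundant in both groups, at 662 and 602 CPM in Bec_LPCs and 445 and 109 CPM in NPC_LPCs, and was not called (1.19 ± 0.60, adjusted p = 0.233). Lsr, the tricellular junction protein angulin-1, went the other way, at 68.2 and 67.2 CPM against 165 and 192 CPM (-1.40 ± 0.19, adjusted p = 0.0143). Krt18 and Krt19, simple epithelial keratins, were not called; Krt19 was at 472 and 441 CPM against 117 and 282 CPM (1.19 ± 0.45, adjusted p = 0.135) and was called without NPC_LPCs replicate 2 (1.97, adjusted p = 0.0480). Krt7, a bile duct keratin, was at 298 and 365 CPM against 1.501 and 17.7 CPM (5.10 ± 1.06, adjusted p = 0.0387). Krt17, a keratin of basal and stressed epithelium, was at 5.66 and 7.89 CPM against 0 reads in NPC_LPCs, at least 41.6-fold higher against the floor of 3 reads (adjusted p = 0.0216). Itgb4, the laminin-binding integrin of hemidesmosomes, was at 317 and 315 CPM against 18.2 and 40.7 CPM (3.42 ± 0.47, adjusted p = 0.0151). Of 9 genes called here (Grhl2, Marveld3, Pkp3, Pkp1, Cdh3, Itgb4, Krt7, Krt17 and Lsr), Pkp1 alone was called in both fits that left out a Bec_LPCs library, and 8 and 7 without NPC_LPCs replicate 1 and 2.

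Of 25 bile duct markers tested 3 rose and 1 fell, against 4.89% and 6.44% of all genes. The list's median was -0.05, 0.11 with library size alone and 0.58 without NPC_LPCs replicate 1. Sox9, the duct and progenitor transcription factor, was at 151 and 145 CPM in Bec_LPCs and 269 and 83.7 CPM in NPC_LPCs, with Bec_LPCs between the NPC_LPCs libraries (adjusted p = 0.758). It was 0.77 without NPC_LPCs replicate 1 and called lower without replicate 2 (-0.86, adjusted p = 0.0457). Spp1, osteopontin, was at 3114 and 2419 CPM against 9410 and 4314 CPM (-1.31 ± 0.63, adjusted p = 0.216). Prom1, CD133, was at 122 and 98.9 CPM against 21.4 and 0.712 CPM (3.33 ± 1.25, adjusted p = 0.135), and was called in both fits that left out an NPC_LPCs library (adjusted p = 0.0152 and 0.0435). Onecut2, a homeobox factor of biliary development, was at 548 and 440 CPM against 53.7 and 72.9 CPM (2.96 ± 0.65, adjusted p = 0.0442).

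Of 36 hepatocyte genes 15 were under the expression filter, and the list summed to 3580 and 3809 CPM in Bec_LPCs and 3873 and 2063 CPM in NPC_LPCs. Of 21 tested 3 rose and 1 fell, against 4.89% and 6.44% of all genes. The median was 0.07, or -0.02 with genes at 0 reads set at their bound and -0.19 without NPC_LPCs replicate 2. Hnf4a, the master regulator of hepatocytes, was at 125 and 104 CPM against 28.8 and 51.2 CPM (1.52 ± 0.30, adjusted p = 0.0334). Cebpa, its partner in hepatocyte maturation, was at 7.39 and 7.37 CPM against 1.56 and 0.813 CPM (2.64 ± 0.39, adjusted p = 0.0184). Rbp4, which carries retinol in blood, was lower, at 26.8 and 22.5 CPM against 57.3 and 95.4 CPM (-1.63 ± 0.27, adjusted p = 0.0238). Alb, albumin, stayed under 1 CPM in all 4 libraries. Of 6 duct and hepatocyte genes called (Dcdc2a, Onecut2, Hnf4a, Cebpa, Ttr and Rbp4) none was called without either Bec_LPCs library, 2 were without NPC_LPCs replicate 1 and 4 without replicate 2.

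**Figure D4:**
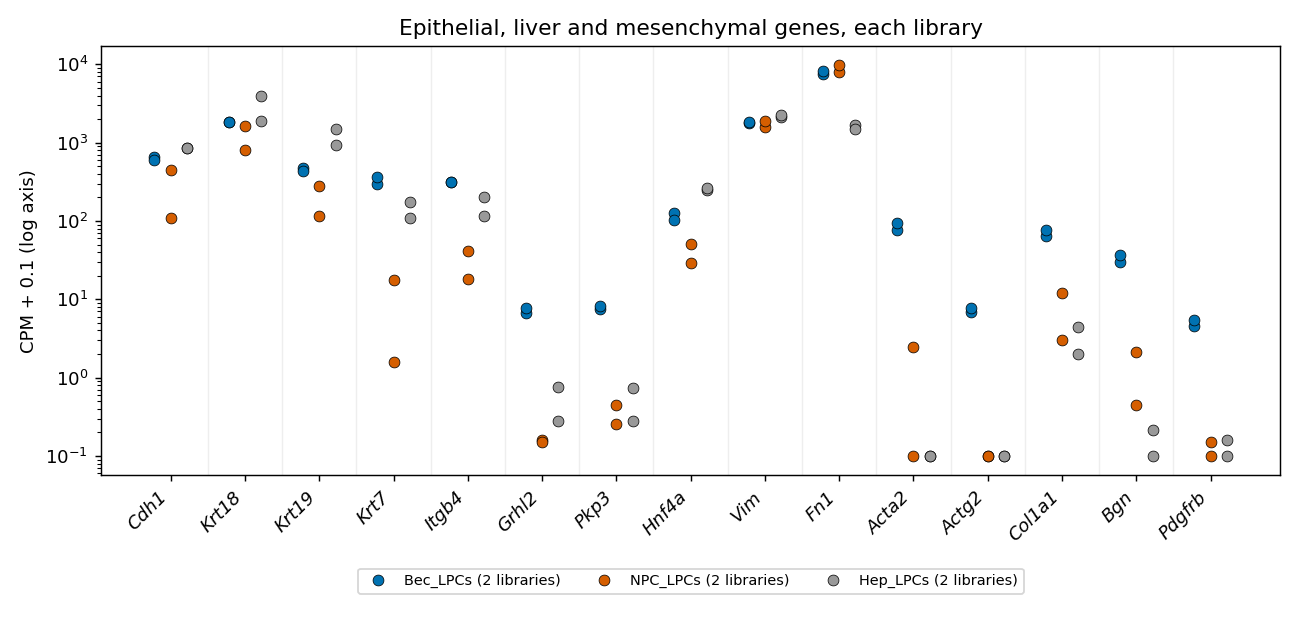
Each point is 1 library's level of a gene, as CPM plus 0.1 on a log axis, for Bec_LPCs (blue), NPC_LPCs (orange) and Hep_LPCs (grey), 2 libraries each. Vim and Fn1 lie close together in Bec_LPCs and NPC_LPCs. In NPC_LPCs Actg2 and Pdgfrb are at or near 0 reads, and Acta2 is at 0 and 2.34 CPM.

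Some mesenchymal and stellate cell genes were higher in Bec_LPCs. Of 24 in the list 9 were under the expression filter. Of 15 tested 6 rose and 1 fell, against 4.89% and 6.44% of all genes, with a median of 3.22. Members near 0 reads in NPC_LPCs, such as Pdgfrb, passed the filter through Bec_LPCs, so the median can lean toward genes high there. Col1a1, of type I collagen, was at 63.7 and 76.9 CPM against 2.89 and 12.1 CPM (3.22 ± 0.72, adjusted p = 0.0447). Bgn, the matrix proteoglycan biglycan, was at 29.4 and 36.3 CPM against 0.346 and 2.03 CPM (4.76 ± 0.85, adjusted p = 0.0273). Pdgfrb, the PDGF receptor of stellate cells and pericytes, was at 4.43 and 5.36 CPM against 0 and 1 reads (7.21 ± 1.04, adjusted p = 0.0173), or 181-fold higher (counting interval 32.2 to 7180). Rgs5, a pericyte regulator of G protein signalling, rose by 4.15 ± 0.83 (adjusted p = 0.0356). Col6a2, of type VI collagen, fell by 2.97 ± 0.53 (adjusted p = 0.0280).

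Of 14 smooth muscle genes tested 4 rose, against 4.89% of all genes, and none fell; 2 rose without NPC_LPCs replicate 1, and 0 when genes needed 10 CPM in 2 libraries. Acta2, smooth muscle actin, was at 77.6 and 94.1 CPM against 0 and 2.34 CPM (6.16 ± 1.30, adjusted p = 0.0493). Actg2, enteric smooth muscle actin, was at 6.71 and 7.72 CPM while neither NPC_LPCs library had a read, so it was at least 44.3-fold higher against the floor of 3 reads (adjusted p = 0.0184). Myh11 and Lmod1, of the smooth muscle contractile apparatus, rose by 4.06 and 5.97 on the log2 scale (adjusted p = 0.0401 and 0.0376). Lmod1 had 1 read in all in NPC_LPCs, and its 76.3-fold difference has a counting interval of 13.4 to 3040. The list's median was 0.28, -0.54 without NPC_LPCs replicate 1 and 1.65 without replicate 2. The 14 genes summed to 3962 to 4353 CPM in Bec_LPCs and 4481 to 7934 CPM in NPC_LPCs. All 14 passed the expression filter, but the 4 that rose passed it through Bec_LPCs alone.

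Defining markers of stellate cells were mixed: Lrat, which stores retinol, had 0 reads in every library, while 4 and 3 of the 24 mesenchymal markers were at 0 reads in Bec_LPCs and 12 and 8 in NPC_LPCs. Their sum was 243 to 284 CPM in Bec_LPCs and 134 to 274 CPM in NPC_LPCs. Bec_LPCs were sorted after culture and are described as Epcam+. The part of mesenchymal cells in these differences was not tested. Vim, vimentin, was abundant in both groups and not called, at 1762 and 1814 CPM against 1600 and 1916 CPM (0.02 ± 0.18, adjusted p = 0.938), and so was Fn1, fibronectin, at 7450 and 8192 CPM against 8081 and 9685 CPM (-0.18 ± 0.19, adjusted p = 0.547). Snai1, a repressor of E-cadherin, was lower, at 2.24 and 1.24 CPM against 13.6 and 22.7 CPM (-3.38 ± 0.46, adjusted p = 0.0145). Of 9 mesenchymal and smooth muscle genes called (Acta2, Actg2, Myh11, Lmod1, Col1a1, Bgn, Pdgfrb, Rgs5 and Col6a2) none was called without either Bec_LPCs library, 5 were without NPC_LPCs replicate 1 and 7 without replicate 2. Of 7 endothelial markers tested edgeR and limma-voom called 0 and DESeq2 1, with 1 at an unadjusted p under 0.05; Pecam1 and Cdh5 were under 1 CPM in all 4 libraries.

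Among secreted regulators, an antagonist of bone morphogenetic proteins (BMPs), Grem1, was higher in Bec_LPCs. In the TGF-beta and BMP list 5 of 26 tested members rose and 2 fell, against 4.89% and 6.44% of all genes, with a median of 0.35. Grem1, gremlin-1, which binds and blocks BMPs (ENSMUSG00000074934.3, chromosome 2, 113746164 to 113758646), was at 37.7 and 42.6 CPM against 3 and 10 reads in NPC_LPCs (6.83 ± 0.52, adjusted p = 0.00287). Bmp7, a BMP ligand (ENSMUSG00000008999.7, chromosome 2, 172868012 to 172940321), was at 39.8 and 39.6 CPM against 2.08 and 3.15 CPM (3.92 ± 0.42, adjusted p = 0.00764). Both the blocker and the ligand were thus higher in the same libraries, and Grem1 and Bmp7 stayed called with any 1 of the 4 libraries left out. Fst, follistatin, which traps activin, rose by 1.25 ± 0.19 (adjusted p = 0.0190), and Tgfb1, transforming growth factor beta 1, fell by 1.49 ± 0.23 (adjusted p = 0.0194).

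Of 20 WNT genes tested 3 rose, against 4.89% of all genes, and none fell. Without NPC_LPCs replicate 1, 1 rose, and without replicate 2, 2 rose and 3 fell. Lgr6, a receptor for R-spondins, was at 78.5 and 94.9 CPM against 18.8 and 21.7 CPM (2.10 ± 0.22, adjusted p = 0.00676). Dkk2, a secreted WNT modulator, and Wnt9a, a ligand, rose by 3.27 and 1.71 on the log2 scale (adjusted p = 0.0345 and 0.0358). Of growth factor receptors, Egfr was at 269 and 292 CPM against 169 and 144 CPM (0.84 ± 0.16, adjusted p = 0.0334) and Fgfr1 at 55.1 and 54.5 CPM against 19.4 and 24.1 CPM (1.33 ± 0.22, adjusted p = 0.0238). Met, the receptor of hepatocyte growth factor, was not called, at 273 and 256 CPM against 214 and 285 CPM (adjusted p = 0.859). Igfbp3, a binding protein of insulin-like growth factors, was at 287 and 308 CPM against 63.4 and 96.7 CPM (1.89 ± 0.24, adjusted p = 0.0127). Of the 11 genes of secreted signals and receptors called (Grem1, Bmp7, Fst, Tgfb1, Lgr6, Dkk2, Wnt9a, Egfr, Fgfr1, Igfbp3 and Insr), 2 (Grem1 and Bmp7) were called in both fits that left out a Bec_LPCs library, 5 without NPC_LPCs replicate 1 and 8 without replicate 2. None of 16 YAP and TEAD genes tested was called by edgeR over all 6 libraries, DESeq2 or limma-voom. In that edgeR fit 0 had an unadjusted p under 0.05. Of 12 Notch genes edgeR called 0 in the same fit, with 5 at an unadjusted p under 0.05, DESeq2 called 4 and limma-voom 1. The edgeR fit of the 4 libraries compared called 1 YAP and TEAD gene higher, and 1 Notch gene higher and 1 lower.

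Of 22 mitosis genes tested 3 fell, against 6.44% of all genes. None had a positive fold change, and the median was -0.87. Of the 16 without counting doubt 1 fell, against 4.45% of all such genes. None of 24 DNA replication genes tested was called, with a median of -0.66. Tpx2, a spindle assembly factor, was at 59.97 and 59.84 CPM against 184 and 259 CPM (-1.89 ± 0.34, adjusted p = 0.0273). Mki67, the proliferation marker, was at 102 and 177 CPM against 362 and 634 CPM and was not called (-1.84 ± 0.50, adjusted p = 0.0689). Of 17 cell cycle inhibitors and p53 targets tested 3 rose, against 4.89% of all genes, and 1 (Cdkn1a, with a counting doubt) fell. Cdkn2a, which encodes p16 and p19ARF, was at 114 and 111 CPM against 34.1 and 37.1 CPM (1.66 ± 0.16, adjusted p = 0.00511). Its neighbour Cdkn2b, p15, was at 127 and 127 CPM against 41.1 and 42.0 CPM (1.61 ± 0.37, adjusted p = 0.0474), and Phlda3, a p53 target, rose by 0.87 ± 0.20 (adjusted p = 0.0447). Of Tpx2, Cdkn2a, Cdkn2b and Phlda3 none was called without either Bec_LPCs library, and 2 and 1 were without NPC_LPCs replicate 1 and 2; the mitosis list had 7 and 1 members called lower in those fits.

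Sterol and glycolysis genes were lower in Bec_LPCs. Of 26 sterol and fatty acid synthesis genes 6 fell and none rose (median -0.91), against 6.44% of all genes called lower. Of 22 glycolysis and hypoxia genes 8 fell (median -0.87) and 1 with a counting doubt rose. Among members without counting doubt 4 of 16 and 5 of 12 fell, against 4.45% of all such genes. Hk1, the hexokinase that starts glycolysis, was at 172 and 163 CPM against 742 and 546 CPM (-1.94 ± 0.32, adjusted p = 0.0231). Egln3, an oxygen sensor of the hypoxia pathway, was at 16.1 and 12.7 CPM against 56.3 and 51.1 CPM (-1.90 ± 0.25, adjusted p = 0.0141). Sqle, squalene epoxidase, was at 38.3 and 38.2 CPM against 73.6 and 78.4 CPM (-0.99 ± 0.15, adjusted p = 0.0190). Gpx3, a secreted glutathione peroxidase, was higher, at 144 and 125 CPM against 4.62 and 7.98 CPM (4.41 ± 0.92, adjusted p = 0.0388). Of 9 metabolic genes called (Sqle, Nsdhl, Sc5d, Hk1, Egln3, Pdk1, Aldoc, Gpx3 and Aldh3a1) none was called without either Bec_LPCs library, 2 were without NPC_LPCs replicate 1 and 6 without replicate 2.

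**Figure D5:**
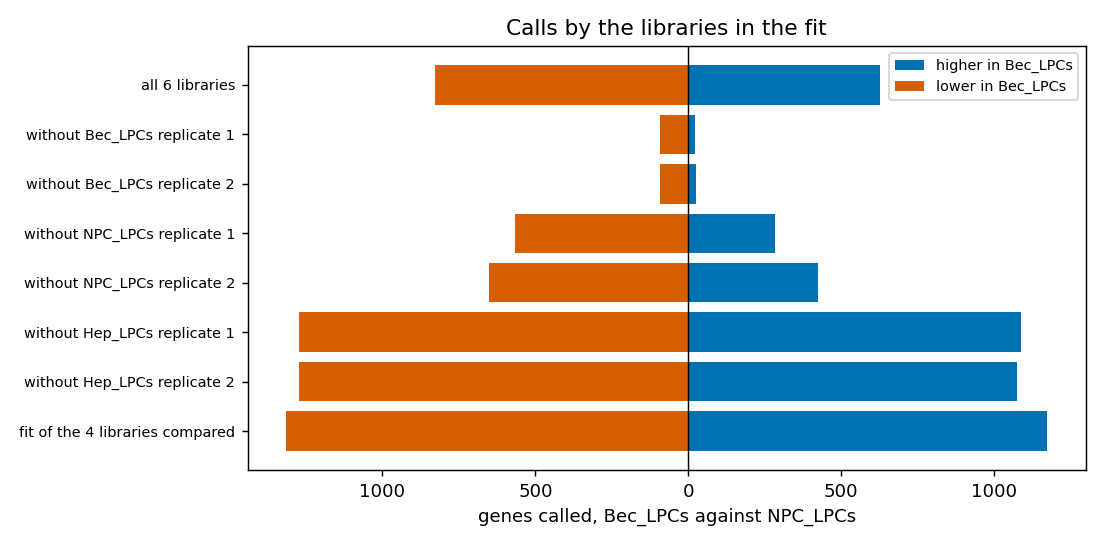
Bars give the number of genes called higher (blue) or lower (orange) in Bec_LPCs by edgeR in the fit of all 6 libraries and in fits with other libraries, a lone library being assumed to vary like the other groups. Without a Bec_LPCs library 115 or 117 genes are called, against 1458 with all 6.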

How the data were processed

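Polyadenylated RNA was sequenced with a stranded paired-end kit, per the labels' protocols. The submitters' processing notes name Trimmomatic, HISAT2, Cufflinks, HTSeq, DESeq and mm10; their versions and roles, the annotation and the strand setting are not stated there or in the labels. The authors deposited raw counts per gene symbol for Bec_LPCs, and counts beside FPKM for the other groups, per the file headers. The deposited FPKM was used only for a check of counts.

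Symbols were updated with RefSeq synonyms (15 for Bec_LPCs and 837 for the other tables), leaving 20571 shared. The 13 mitochondrially encoded genes (4.19% and 4.26% of Bec_LPCs counts, in no other table used) and unnamed rows (0.000191% and 0.000181%) were left out, and 27 date-like names stayed unmatched. Counts were fitted with edgeR 4.0.16 (filterByExpr, TMM, robust quasi-likelihood, 6 libraries, R 4.3.3); the test was tried on simulated data. Counting doubt means overlapping exons (bedtools 2.31.1, GENCODE M21), a transcript copy with 95% identity or more across 200 bases (minimap2 2.31), no annotation, or under 0.5 CPM in 1 kind of table and at least 10 CPM in all libraries of the other. Promoter windows are from RefSeq (GRCm38.p6).

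Named genes were, without counting doubt: the 12 largest changes each way among called genes whose higher group averaged 32 CPM or more and whose groups do not overlap; up to 8 each way also called with any 1 of the 4 libraries left out; up to 4 per list of 38 by smallest adjusted p; and key liver cell genes. Genes outside this rule (Ppl, Cd14, Met, Lrat, Cdkn1a and those of the closing part) were chosen after their values were seen, as were the motif letters and the FPKM check. Some genes are not reported here. The members and lists were chosen with earlier results of these data known. Alternatives were other scalings, filters, tools (DESeq2 1.42.0, limma 3.58.1), library sets and a replicate block.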

Additional observations from a re-analysis of the deposited data

How the results depend on the processing

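Calls by edgeR numbered 1458 in the fit of all 6 libraries and stayed within 1.5 times of that with symbols as deposited, limma-voom, a 10 CPM filter, no filter, and either scaling alternative (library totals or DESeq2 size factors). They were 2897 with DESeq2's Wald test and 2491 in the fit of the 4 libraries compared, and 552 when only the 8871 genes without exonic overlap or copy were fitted. Leaving out a Bec_LPCs or NPC_LPCs library gave 115 to 1076 calls, and leaving out a Hep_LPCs library 2349 to 2363. The share called higher was 43.1%, 61.3% with library size alone, and 19.1% to 46.1% with 1 library left out. The cause was not tested. Same-numbered Bec_LPCs and NPC_LPCs libraries did not deviate together (r = 0.087 across genes). With 2 libraries a group this cannot tell whether the numbers pair samples. With the replicate block 770 genes were called, 756 of them among the 1458. That fit called 1 smooth muscle gene higher, against 4 without the block. Direction turned in 4 genes that were not called: with 1 library left out, fold changes ran from -0.86 to 0.77 for Sox9, -0.15 to 0.16 for Vim, -0.48 to 3.55 for Afp and -0.14 to 1.155 for Msln, and Vim was -0.051 with genes without overlap or copy alone. No named gene that was called turned direction under these alternatives. At these depths a gene with 0 reads in a library is bounded only by the floor of 3 reads.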

Other observations

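Immediate early genes, which respond within minutes to growth signals and handling, differed in a few members. Egr1 was at 149 and 145 CPM in Bec_LPCs and 18.0 and 36.5 CPM in NPC_LPCs (2.43 ± 0.40, edgeR adjusted p = 0.0231), and Fos was at 22.03 and 19.2 CPM against 0.866 and 2.80 CPM (3.47 ± 0.77, adjusted p = 0.0444). Without NPC_LPCs replicate 2 Egr1 was called and Fos was not, and without any other of the 4 libraries neither was called. Of 22 tested 3 rose and 1 fell, against 4.89% and 6.44% of all genes. The list's median was -0.05, or 0.11 with library size alone. Of 10 tested genes of a gastrointestinal list 1 rose (Gata6) and 2 fell (Cdx2 and, with a counting doubt, Lgals2). The shares of all genes were 4.89% and 6.44%, and the list's median was -0.40. Cdx2, the intestinal homeobox factor, had 2 reads in each Bec_LPCs library and 3.52 and 4.52 CPM in NPC_LPCs (-5.46 ± 0.37, adjusted p = 0.00213), 47.7-fold lower (counting interval 18.2 to 177), and Hep_LPCs held 34.6 and 30.8 CPM. Gata6, a factor of endoderm and bile ducts, was at 69.8 and 64.0 CPM against 35.4 and 31.1 CPM (1.01 ± 0.21, adjusted p = 0.0387). Aldh1a2, which makes retinoic acid, was at 24.6 and 34.1 CPM against 2.08 and 5.08 CPM (3.03 ± 0.48, adjusted p = 0.0219). Cdx2 stayed called with any 1 of the 4 libraries left out, Aldh1a2 lost the call without either Bec_LPCs library, and Gata6 lost it in all 4 such fits.

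Glrx, Tns2 and Cep85, outside the lists, were named by the rule that asks for a call with any 1 of the 4 libraries left out. Their keeping the call in those fits is therefore no result. Glrx, glutaredoxin, was at 9.24 and 7.59 CPM against 74.7 and 55.5 CPM (-2.95 ± 0.24, edgeR adjusted p = 0.00354). Tns2, tensin-2 of focal adhesions, was at 22.8 and 23.8 CPM against 112 and 134 CPM (-2.40 ± 0.19, adjusted p = 0.00308). Cep85, a centrosomal protein, was at 167 and 137 CPM against 32.4 and 34.5 CPM (2.18 ± 0.18, adjusted p = 0.00354). Hep_LPCs, whose tables hold counts beside FPKM as those of NPC_LPCs do, lay nearer NPC_LPCs for Cep85 and Tns2. They held Cep85 at 22.01 and 19.88 CPM and Tns2 at 134.5 and 162.1 CPM. For Glrx they lay nearer Bec_LPCs, at 13.29 and 13.11 CPM. The part of the way the tables were counted in these differences was not tested.

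Scamp3, Clk2, Socs4 and Mob1b met the rule for named genes and are set aside. In NPC_LPCs their counts were low beside the deposited FPKM: the reads counted were 0.0131 and 0.0122 of those implied by FPKM for Scamp3, 0.286 and 0.254 for Clk2, 0.559 and 0.484 for Socs4 and 0.523 and 0.493 for Mob1b, against a median of 1.84 over 11094 genes. This check was chosen after the values were seen, takes the median length of a gene's protein-coding transcripts, and cannot be made for Bec_LPCs, whose tables hold counts only. Of all tested genes without counting doubt 5.11% were called higher and 4.45% lower in Bec_LPCs. A ratio under 0.5 in either NPC_LPCs library was found in 110 genes without other doubt, 30 of them called higher and 3 lower in Bec_LPCs. Saa3 is among these (0.497 and 0.511), and a low NPC_LPCs count makes its difference smaller, not larger. On the high side, 581 tested genes had a ratio over 6.76, as far above the median as 0.5 lies below it, and 14 were called higher and 32 lower. Among the called genes named these are C3 (16.7 and 16.1) and Hk1 (16.1 and 15.9), whose median coding transcripts are 554 and 581 bases long. With the longest one, 5136 and 4278 bases, the ratios are 1.80 and 1.74 for C3 and 2.18 and 2.17 for Hk1, against a median of 1.38.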
